A study of Mus musculus with 8 samples.

Results

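Interferons switch on a broad antiviral programme that includes several enzymes of the PARP family, which attach ADP-ribose to proteins, and several members of the TRIM family, most of which attach ubiquitin. In the cell, interferon bound to its receptor activates the kinases JAK1 and TYK2, and transcription factors, STAT2 and IRF9 among them, then bind the interferon-stimulated response element (ISRE) at target genes. Astrocytes carry interferon receptors, and they respond to the cytokine TNF-α mainly through NF-κB. The genes described here are 10 interferon-induced genes of these families out of 54146 genes in the deposited tables. They are the PARP genes Parp9, Parp10, Parp12 and Parp14, the partner of PARP9 named Dtx3l, and the TRIM genes Trim21, Trim25, Trim30a, Trim34a and Trim56. Each was found by its symbol, and all 10 were present in all 8 libraries and passed the filter on low counts in every comparison. They were named by symbol and not by a rule on their measured values, but with earlier results of these data known. The study also examined interferon response genes on these same samples, so their direction after TNF-α stimulation is not independent evidence.

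RNA was sequenced from primary astrocytes grown from the cortices of C57BL/6 mouse pups of postnatal days 2 to 5. Mixed glia were infected with lentivirus that carried an shRNA against Gstm1 (GSTM1 KD) or a non-silencing shRNA (control KD), selected with puromycin, shaken, and depleted of CD11b-positive cells before plating. Both kinds of culture were harvested untreated (basal level) or after 6 h with TNF-α at 50 ng/ml. This gave 4 groups of 2 libraries, which the study calls biological replicates, with brains pooled in each culture flask and with no statement of what a replicate number marks. All groups therefore share the virus, puromycin and sorting, and no uninfected group was analysed here.

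The expected counts summed to between 17349676 and 34434633 per library, and the mitochondrial share of counts was 1.87% to 1.99% in the GSTM1 KD libraries and 1.21% to 1.51% in the control KD libraries. The target gene Gstm1 had 4851 to 9644 counts in the control KD libraries and 405 to 676 in the GSTM1 KD libraries. All 10 astrocyte markers examined, Gfap and Aqp4 among them, were present in every library. Their summed level was 1772 to 4129 TPM in control KD and 3913 to 6236 TPM in GSTM1 KD, and it was higher in replicate 2 of every group. The 16 microglia and macrophage markers summed to 54.2 to 72.8 TPM in all libraries, and P2ry12 and Siglech, which define microglia, had at most 2 counts. Other markers were higher in 1 replicate of control KD: Laptm5, C1qa, C1qc, Itgam, Csf1r and Trem2 had 47 to 84 counts each in untreated control KD replicate 1 and 29 to 63 in stimulated control KD replicate 1, against 3 to 15 in the control KD libraries of replicate 2 and 0 to 24 in the GSTM1 KD libraries. Of the 16, the filter on low counts left 8 to be tested between the untreated knockdowns, 6 between the stimulated ones and 12 in the fits of all 8 libraries, and 0 passed in edgeR in any of these comparisons. Oligodendrocyte-lineage markers summed to 482 to 678 TPM in control KD and 399 to 510 TPM in GSTM1 KD. Most of each sum was Olig1, at 271 to 463 TPM, while Sox10, Mog and Mag had at most 9 counts in any library. Of the 7 tested between the knockdowns, 1 was lower in GSTM1 KD at the basal level (Olig2). After stimulation 2 were lower (Olig1 and Olig2). Of the 10 astrocyte markers 1, S100b, passed as lower in each state, and of 5 pericyte and fibroblast markers Col1a2 passed as lower in each state and Pdgfrb as higher after stimulation. The part of these markers in the results below was not tested. In bulk RNA, fewer cells that express a gene and less RNA per cell cannot be told apart, and this holds for every value below.

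Levels of different genes were compared as TPM, a unit scaled for transcript length and library. Untreated, the group means ran from 4.81 TPM (Trim25 in GSTM1 KD) to 25.2 TPM (Parp12 in GSTM1 KD). Parp12 was the highest in control KD at 20.96 and 23.9 TPM and in GSTM1 KD at 26.2 and 24.3 TPM. Parp9 followed with 18.0 and 20.7 TPM in control KD. Parp14 was the lowest in control KD with 5.85 and 7.24 TPM, a range that overlapped that of Trim25 at 6.23 and 8.26 TPM. After TNF-α stimulation Parp9 was the highest, with 50.3 and 60.1 TPM in the control KD pair against 127 and 82.1 TPM in the GSTM1 KD pair. Parp14 moved to the second place from place 10 of 10 in control KD and place 9 in GSTM1 KD, with 37.9 and 44.8 TPM in the control KD pair against 112 and 70.2 TPM in the GSTM1 KD pair. In control KD its range overlapped those of Dtx3l (35.9 and 42.6 TPM) and Parp12 (35.8 and 39.1 TPM), so these neighbours did not differ beyond their spread. Trim25 was the lowest after stimulation, at 14.2 and 15.3 TPM in the control KD pair against 35.0 and 18.6 TPM in the GSTM1 KD pair. In GSTM1 KD after TNF-α stimulation each gene's range overlapped that of its neighbour in this order.

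**Figure D1:**
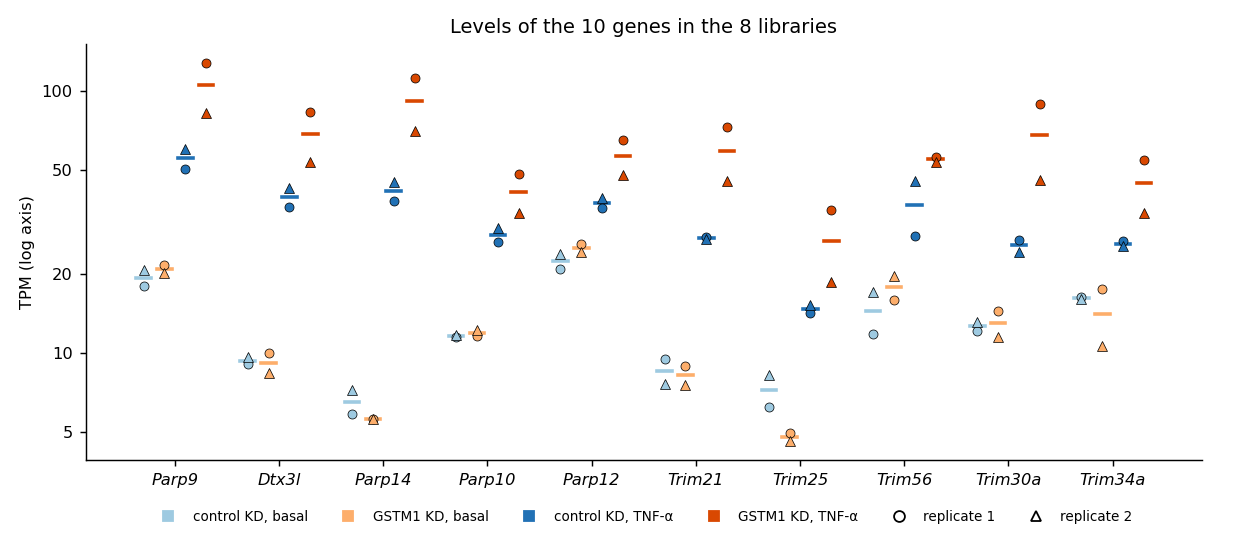
TPM (log axis) of each gene in the 8 libraries. Colours mark the 4 groups, circles replicate 1, triangles replicate 2, and bars the mean of the pair. In GSTM1 KD after TNF-α stimulation both libraries lie above both control KD libraries for all 10 genes, and the circle lies above the triangle for all 10.

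The response to TNF-α was measured within each knockdown, by edgeR's quasi-likelihood F-test fitted on all 8 libraries with Benjamini-Hochberg adjustment over all 15332 genes tested. In control KD astrocytes, 6 of the 10 genes passed the adjusted threshold of 0.05 and rose (Parp9, Parp10, Parp14, Dtx3l, Trim21 and Trim56), while 2.1% of all genes tested did. In GSTM1 KD astrocytes all 10 passed and rose, while 2.35% of all genes did. DESeq2 called 9 of the 10 as higher in control KD and 10 in GSTM1 KD, with 742 and 630 calls over all genes. The edgeR counts depended on single libraries. The 6 in control KD became 2 without control KD replicate 2 of either state and 4 without replicate 1 of the basal state, where calls over all genes went from 403 to between 180 and 295. The 10 in GSTM1 KD became 5 without basal GSTM1 KD replicate 1 and 4 without basal replicate 2, where calls over all genes went from 406 to 83 and 74. The libraries after TNF-α stimulation lay above the basal libraries for all 10 genes in each knockdown, against 14.2% of all genes in control KD and 20.6% in GSTM1 KD. The median log2 fold change of the 10 genes was 1.30 in control KD cells and 2.34 in GSTM1 KD cells, where the medians over all genes were -0.02 and -0.01. These responses share no library with each other. Their p-values are not independent, because both take the estimate of spread from the same fit of all 8 libraries.

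**Figure D2:**
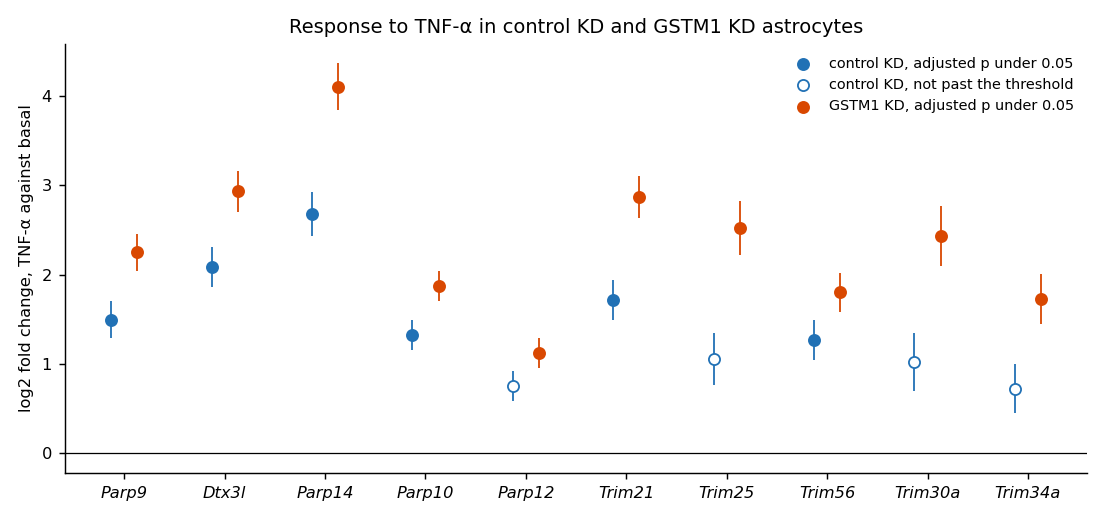
Log2 fold change of TNF-α against basal for each gene, in control KD (blue) and GSTM1 KD (orange), with the standard error of the fitted model as bars. Filled points passed the adjusted threshold and open points did not. The orange point is above the blue one for all 10 genes, from 1.13 against 0.75 for Parp12 to 4.10 against 2.68 for Parp14.

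Between the knockdowns, GSTM1 KD and control KD were compared on the 4 libraries of each state. After TNF-α stimulation all 10 genes were higher in both GSTM1 KD libraries than in both control KD libraries, and 33.3% of all 14593 genes tested were separated in this direction. Parp14 and Trim21 passed edgeR's adjusted threshold as higher, 2 of 10, where 7.26% of all genes tested passed as higher and 8.92% as lower. All 10 had an unadjusted p under 0.05 in this direction, against 17.2% of all genes. DESeq2, the tool named by the study, called 8 of the 10 (not Parp10 and Parp12) against 9.34% of all genes. The median log2 fold change of the 10 genes was 0.77, and that of all genes was -0.01. With a replicate block 8 of the 10 passed, and calls over all genes were 4302 against 2360 without it. No source says what a replicate number marks. At the basal level 0 of the 10 passed in edgeR, against 10.2% of all genes tested in either direction. Trim25 was the only gene of the 10 with an unadjusted p under 0.05 there, where 4712 of all 14899 genes had one. It was also the only gene of the 10 that DESeq2 called, as lower, with 2492 calls over all genes. The libraries were separated at the basal level, with GSTM1 KD lower, for Parp10, Parp14 and Trim25, against 33.5% of all genes. These 3 were thus below control KD when untreated and above it after stimulation, as were 0.737% of the 14379 genes tested in both states. The interferon-induced genes Ifit1 and Usp18, which are not among the 10, showed this order too.

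The size of the difference after TNF-α stimulation rested in part on 1 library. GSTM1 KD replicate 1 was higher than GSTM1 KD replicate 2 for all 10 genes after TNF-α stimulation, by 0.21 (Trim56) to 1.09 (Trim30a) on the log2 CPM scale with a median of 0.70. Over all genes the median difference between these replicates was 0.01, and 19.5% of all genes were higher in replicate 1 by at least as much as Trim56. In the other groups the median difference between replicates of the 10 genes lay between -0.15 and 0.11. Each fit with a library left out rests on 3 libraries, and the lone library of a group is assumed to vary like the pair of the other group. Without GSTM1 KD replicate 1 the median log2 fold change between the knockdowns was 0.43 and 0 of the 10 genes passed, as did 0 of all genes, so the lost calls are not particular to these genes. Without GSTM1 KD replicate 2 the median was 1.07, and 2 of the 10 and 94 of all genes passed. Without control KD replicate 1 it was 0.70, with 1 of the 10 and 2703 of all genes past the threshold, and without control KD replicate 2 it was 0.93, with 6 and 5028. The summed microglia and macrophage markers were 67.5 TPM in GSTM1 KD replicate 1 and 54.2 TPM in replicate 2 after stimulation, and they were higher in replicate 1 of the other groups too, so their part in the result was not tested. Every gene stayed higher in GSTM1 KD with any of the 4 libraries left out.

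**Figure D3:**
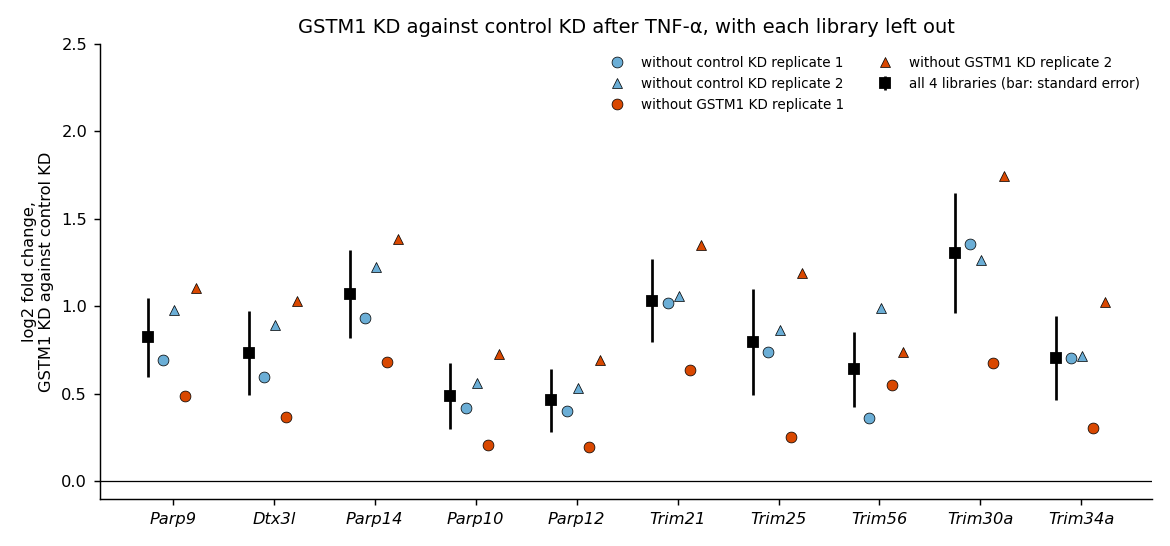
Log2 fold change of GSTM1 KD against control KD after TNF-α stimulation, from all 4 libraries (black squares, bars are standard errors) and with each library left out (coloured points). All points are above 0, and the lowest for 9 of the 10 genes is the one without GSTM1 KD replicate 1. For Trim56 the lowest, 0.36, is the one without control KD replicate 1.

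Whether the response to TNF-α itself differed between the knockdowns was tested as an interaction in the fit of all 8 libraries. The response was larger in GSTM1 KD for all 10 genes by the fitted value, with a median difference of 0.93 on the log2 scale, where the median over all genes was 0.02. No gene passed the adjusted threshold in edgeR, whether of these 10 or of all 15332, and 295 genes had an unadjusted p under 0.05. Of the 10 genes 7 were at an unadjusted p under 0.05 (not Parp10, Parp12 and Trim56), against 1.29% of all genes that had such a p with a larger response in GSTM1 KD. Of the 47 other interferon-induced genes examined below, 29 had such a p in this direction in edgeR, and their median difference was 1.24. The larger response was thus not particular to the 10 genes. DESeq2 called 1 of the 10, Parp14 (adjusted p = 0.0314), against 0.128% of all genes. The median difference was 0.53 without GSTM1 KD replicate 1 after TNF-α stimulation and 1.23 without GSTM1 KD replicate 2.

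Parp9 (ENSMUSG00000022906.15) encodes a PARP with macrodomains that works as a complex with the ubiquitin ligase DTX3L, encoded by Dtx3l (ENSMUSG00000049502.17). Their genes stand head to head on chromosome 16 of GRCm38, Parp9 on the plus strand at chr16:35938470-35972605 and Dtx3l on the minus strand at chr16:35926511-35939151, with 5′ ends 681 bases apart and 458 exonic bases in common. In CPM, which are counts scaled to library size and TMM factor, Parp9 had 29.2 and 32.96 in the control KD pair against 33.0 and 32.1 in the GSTM1 KD pair without TNF-α. After stimulation it had 77.3 and 95.3 CPM in the control KD pair against 187 and 120.3 in the GSTM1 KD pair, so the knockdowns overlapped at the basal level and were separated after stimulation. On the log2 scale Parp9 responded to TNF-α by 1.50 in control KD cells (standard error 0.206, adjusted p = 0.0127), compared with 2.25 in GSTM1 KD cells (standard error 0.210, adjusted p = 0.00265). Between the stimulated knockdowns the log2 fold change of Parp9 was 0.82 (standard error 0.225), short of the threshold in edgeR (adjusted p = 0.0616) and past it in DESeq2 (adjusted p = 0.00387).

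Dtx3l had 27.1 and 28.7 CPM in the control KD pair against 27.7 and 23.8 CPM in the GSTM1 KD pair at the basal level, an overlapping range. After TNF-α stimulation it had 104 and 129 CPM in the control KD pair against 240.3 and 149.7 CPM in the GSTM1 KD pair. Its response was 2.09 in control KD cells (adjusted p = 0.00585), compared with 2.93 in GSTM1 KD cells (adjusted p = 0.00154), larger than that of Parp9 by the fitted value in each knockdown. Between the knockdowns after stimulation its log2 fold change was 0.73 (standard error 0.239, adjusted p = 0.0897 in edgeR and 0.0144 in DESeq2). The counts of Parp9 and Dtx3l were fractional in all 8 libraries and their sum was within 0.015 of a whole number in all 8, so reads in the overlap had been divided between them. Summed, the 2 genes had 1125 to 1963 counts in the basal libraries, 4239 and 3721 in control KD after TNF-α stimulation and 9332 and 4776 in GSTM1 KD. The log2 fold change of the sum between the knockdowns after stimulation was 0.77 (adjusted p = 0.0779).

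Parp14 (ENSMUSG00000034422.14, chr16:35832874-35871544, minus strand), a mono-ADP-ribosyltransferase with macrodomains known as a cofactor of STAT6, lies 54966 bases from Dtx3l. It had the largest response of the 10 genes. At the basal level it had 25.0 and 30.7 CPM in the control KD pair against 22.4 and 20.97 CPM in the GSTM1 KD pair, and after TNF-α stimulation 157 and 194 CPM in the control KD pair against 459 and 279 CPM in the GSTM1 KD pair. The GSTM1 KD pair was thus below the control KD pair when untreated and above it after stimulation. TNF-α raised Parp14 by 2.68 on the log2 scale in control KD cells (standard error 0.246, adjusted p = 0.00326), compared with 4.10 in GSTM1 KD cells (standard error 0.262, adjusted p = 0.000764), which are 6.40-fold and 17.2-fold. Between the knockdowns after stimulation Parp14 was higher in GSTM1 KD by 1.07 (standard error 0.251, 95% interval 0.44 to 1.69, adjusted p = 0.0441). It passed without control KD replicate 2 (1.23, adjusted p = 0.0103). It did not pass without GSTM1 KD replicate 1 (0.68, adjusted p = 0.150), without GSTM1 KD replicate 2 (1.38, adjusted p = 0.0598) or without control KD replicate 1 (0.93, adjusted p = 0.0507). Its basal log2 fold change was -0.33 (standard error 0.152, adjusted p = 0.202). The difference of the responses was 1.42 (standard error 0.332, unadjusted p = 0.00341 in the fit across all genes by edgeR, adjusted p = 1.00).

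Parp10 (ENSMUSG00000063268.12, chr15:76231174-76243441, minus strand), which also transfers single ADP-ribose units, shares 205 exonic bases with Plec on the same strand. Its count was fractional in 4 of 8 libraries and within 0.015 of a whole number in all 8 when added to that of Plec, so reads were divided between them, in a number that was not measured. It had 20.7 and 19.7 CPM in the control KD pair against 19.3 and 19.3 CPM in the GSTM1 KD pair when untreated, and 47.0 and 52.4 against 82.8 and 57.2 CPM after TNF-α stimulation. TNF-α raised it by 1.32 in control KD cells (adjusted p = 0.0104), compared with 1.87 in GSTM1 KD cells (adjusted p = 0.00251). Its log2 fold change between the knockdowns after stimulation was 0.49 (standard error 0.187), which passed neither in edgeR (adjusted p = 0.126) nor in DESeq2 (adjusted p = 0.102).

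Parp12 (ENSMUSG00000038507.6, chr6:39086410-39118349, minus strand), a PARP with CCCH zinc fingers that restricts viruses, had the smallest response of the 10 genes in GSTM1 KD and, after Trim34a, in control KD. It had 36.1 and 41.5 CPM in the control KD pair against 42.9 and 39.7 CPM in the GSTM1 KD pair when untreated, and 61.1 and 67.7 against 105 and 73.4 CPM after TNF-α stimulation. The response was 0.75 in control KD (standard error 0.168), which did not pass (adjusted p = 0.0728), and 1.13 in GSTM1 KD (standard error 0.169), which passed (adjusted p = 0.0166). The difference of these responses, 0.37, had a 95% interval of -0.18 to 0.93, which includes 0. The log2 fold change between the knockdowns after stimulation was 0.46 (adjusted p = 0.130 in edgeR and 0.108 in DESeq2).

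Trim21 (ENSMUSG00000030966.13, chr7:102557921-102565486, minus strand) encodes a ubiquitin ligase that binds antibody-coated pathogens in the cytosol. Untreated, it had 12.9 and 11.3 CPM in the control KD pair against 11.6 and 10.5 CPM in the GSTM1 KD pair, an overlapping range. After TNF-α stimulation it had 38.4 and 39.9 CPM in the control KD pair against 100.5 and 60.5 CPM in the GSTM1 KD pair. TNF-α raised it by 1.71 in control KD cells (standard error 0.227, adjusted p = 0.0113), compared with 2.87 in GSTM1 KD cells (standard error 0.236, adjusted p = 0.00163). Between the knockdowns after stimulation Trim21 was higher in GSTM1 KD by 1.03 (standard error 0.239, 95% interval 0.44 to 1.63, adjusted p = 0.0431), or 2.05-fold. It passed without GSTM1 KD replicate 2 (adjusted p = 0.0470) and without either control KD library (adjusted p = 0.0429 and 0.0182), and did not pass without GSTM1 KD replicate 1 (0.64, adjusted p = 0.127).

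Trim25 (ENSMUSG00000000275.16, chr11:88999376-89020293, plus strand) encodes a ubiquitin ligase that acts with the RNA sensor RIG-I, the product of Ddx58. It was the gene of the 10 whose basal values lay farthest apart, with 19.9 and 26.1 CPM in the control KD pair against 14.9 and 13.8 CPM in the GSTM1 KD pair. The basal log2 fold change was -0.65 (standard error 0.182, 95% interval -1.10 to -0.20), short of the threshold in edgeR (adjusted p = 0.0771) and past it as lower in DESeq2 (adjusted p = 0.0351). After TNF-α stimulation the order was the opposite, with 44.6 and 49.2 CPM in the control KD pair against 108 and 55.6 CPM in the GSTM1 KD pair. Its response was 1.05 in control KD cells (standard error 0.289, adjusted p = 0.145), compared with 2.52 in GSTM1 KD cells (standard error 0.304, adjusted p = 0.00636). The log2 fold change after stimulation was 0.80 (standard error 0.301, adjusted p = 0.122 in edgeR and 0.0291 in DESeq2), and it was 0.25 without GSTM1 KD replicate 1. The difference of the responses, 1.47, had a standard error of 0.410 and an adjusted p of 1.00 in edgeR.

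Trim56 (ENSMUSG00000043279.9, chr5:137105644-137116209, minus strand) encodes a ubiquitin ligase linked to DNA sensing by cGAS and STING. It had the most CPM of the 10 genes at the basal level, 53.4 and 69.3 in the control KD pair against 63.4 and 68.6 in the GSTM1 KD pair, an overlapping range. After TNF-α stimulation it had 113 and 178 CPM in the control KD pair against 244 and 212 CPM in the GSTM1 KD pair. It rose by 1.27 in control KD cells (adjusted p = 0.0303), compared with 1.80 in GSTM1 KD cells (adjusted p = 0.00734). In control KD the call was lost in 7 of the 8 fits that left out a library, where the log2 fold change ran from 0.93 to 1.55 over the 8 fits, and in the fit of the 4 control KD libraries alone (adjusted p = 0.194). Of those 7, 4 left out a GSTM1 KD library, so there and in the fit of control KD alone the control KD values were the same and the estimate of the spread changed. Between the knockdowns after stimulation its log2 fold change was 0.64 (standard error 0.216, adjusted p = 0.0966 in edgeR and 0.0257 in DESeq2). The GSTM1 KD replicates of Trim56 after stimulation lay closest together among the 10 genes, and its control KD replicates after TNF-α stimulation lay farthest apart.

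Trim30a (ENSMUSG00000030921.17, chr7:104409025-104465193, minus strand) encodes a mouse TRIM protein known to promote the loss of the NF-κB adaptors TAB2 and TAB3. Trim34a (ENSMUSG00000056144.14, chr7:104244457-104262234, plus strand) is a relative of Trim5 whose product is less well known, and it lies 146790 bases from Trim30a in a cluster of TRIM paralogs. Untreated, Trim30a had 25.7 and 27.4 CPM in the control KD pair against 28.8 and 20.6 CPM in the GSTM1 KD pair. After TNF-α stimulation it had 54.5 and 51.8 CPM in the control KD pair against 180 and 84.5 CPM in the GSTM1 KD pair, so the GSTM1 KD replicates differed by 1.09 on the log2 scale. Its response was 1.03 in control KD cells (standard error 0.324, adjusted p = 0.211), compared with 2.43 in GSTM1 KD cells (standard error 0.335, adjusted p = 0.0116). Between the knockdowns after stimulation it had the largest log2 fold change of the 10 genes, 1.30, but also the largest standard error, 0.341, and did not pass in edgeR (adjusted p = 0.0557), while DESeq2 called it (adjusted p = 0.000224). It was 0.67 without GSTM1 KD replicate 1 and 1.75 without GSTM1 KD replicate 2.

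The counts of Trim30a were fractional in all 8 libraries and within 0.015 of a whole number when added to those of its paralog Trim30d, so the 2 genes share reads. Summed, they had 2192 and 1533 counts in the control KD pair against 6733 and 2647 in the GSTM1 KD pair after TNF-α stimulation, a log2 fold change of 1.29 (adjusted p = 0.0520). Trim34a had 22.4 and 21.6 CPM in the control KD pair against 22.0 and 13.6 CPM in the GSTM1 KD pair when untreated, and 35.3 and 36.1 against 73.1 and 43.9 CPM after TNF-α stimulation. GSTM1 KD replicate 2 was the lowest of the basal libraries for this gene. Its response was 0.72 in control KD cells (adjusted p = 0.322), compared with 1.73 in GSTM1 KD cells (adjusted p = 0.0234). Its log2 fold change between the knockdowns after stimulation was 0.71 (standard error 0.240, adjusted p = 0.0985 in edgeR and 0.0307 in DESeq2). Trim34a counts were fractional in 7 of 8 libraries, and within 0.015 of a whole number in all 8 when added to those of Trim34b. Reads were thus divided between these genes, and Trim34b had at most 7 counts. Summed, their log2 fold change between the knockdowns after stimulation was 0.71 (adjusted p = 0.0944 in edgeR). Trim34a also overlaps the antisense gene Gm47248 by 609 exonic bases, and the strand setting of the counting was not given in the sources used here.

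For all 10 genes the libraries after TNF-α stimulation lay above the basal ones in each knockdown. Their promoters were therefore searched for the core letters of the ISRE, GAAANNGAAA, and of the interferon-gamma activated site, TTCNNNGAA. Both strands were searched, with overlapping matches counted. RefSeq promoters (GRCm38.p6, 250 bases before to 50 after the start) matched 7 of the 10 genes, with 8 promoters. Parp9, Parp10 and Parp14 had no entry. The ISRE-like letters were in the promoters of 3 of the 7 genes, Trim21, Trim30a and Trim34a, and in 3.44% of all 32851 promoters. The TTCNNNGAA letters were in 0 of the 7 and in 8.3% of all promoters. The matching stretches are shown because they are the part that these 3 chromosome 7 genes have in common, with the matched letters in capitals, read 5′ to 3′ along the gene's own strand.
Trim21, chr7:102565447-102565476, minus strand: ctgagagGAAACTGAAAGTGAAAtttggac
Trim30a, chr7:104465213-104465236, minus strand: tctttagTTTCTTTTTCtcagttc
Trim30a, alternative start, chr7:104446107-104446130, minus strand: tttttagTTTCTTTTTCtcagttc
Trim34a, chr7:104244460-104244483, plus strand: tttggagTTTCAGTTTCttttctc
Trim21 holds 2 overlapping matches, at 14 to 23 and 20 to 29 bases after its start. The match in Trim34a is at 11 to 20 bases after the start. In Trim30a it lies at -36 to -27 and, at the alternative start, 3 to 12 bases after it, and in Trim30a and Trim34a the letters are on the strand opposite to the gene. A match is a description of letters, and a promoter without one, as for Trim25, Trim56, Parp12 and Dtx3l, may hold other forms of the element.

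The pattern of 3 of the genes over the 8 libraries was compared with that of each of 15331 other genes, by the root mean square difference of centred log2 CPM. The nearest to Parp9 were Tap1 (0.09), Tor3a (0.14), Samd9l (0.15), Nlrc5 (0.20) and Parp10 (0.20), while Dtx3l ranked 30 and Parp14, whose response was larger, ranked 636. The nearest to Trim30a were Trim30d (0.11), with which it shares reads, Isg20 (0.13), Nlrc5 (0.16), Socs1 (0.16) and RP23-154O12.1 (0.17). The nearest to Trim25 were Znfx1 (0.20), Mndal (0.20), Stat2 (0.23), RP23-101F14.3 (0.24) and Cldn1 (0.26), and Parp9, Trim30a and Parp10 ranked 7, 8 and 9.

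The other members of both families were counted in the same tests. Of the 12 other PARP genes tested after TNF-α stimulation, 2 passed as higher in GSTM1 KD and 0 as lower (median log2 fold change 0.04). Those were Parp3, a nuclear enzyme of DNA repair (0.92, adjusted p = 0.0129), and Parp11 (0.97, adjusted p = 0.0287). Parp3 had 1709 and 1384 counts in control KD against 2116 and 2179 in GSTM1 KD when untreated, and 1359 and 1129 against 2530 and 2198 after stimulation, so it was also higher without TNF-α (0.96, adjusted p = 0.0217). TNF-α raised 1 of the 12 in control KD, Parp8, against 2.1% of all genes. In GSTM1 KD it raised 3, Parp8, Parp11 and the antiviral zinc finger gene Zc3hav1, against 2.35%. Zc3hav1 rose by 1.78 on the log2 scale in GSTM1 KD (adjusted p = 0.0105). Between the knockdowns Zc3hav1 was lower in GSTM1 KD when untreated (-0.72, adjusted p = 0.0285) and was at 0.21 after stimulation (adjusted p = 0.600). Of 11 further genes that remove or read ADP-ribose, 1 was higher (Dtx3, 0.39, adjusted p = 0.0434) and 1 lower (Adprhl2, -0.68, adjusted p = 0.0333) in stimulated GSTM1 KD astrocytes. The shares of all genes there were 7.26% and 8.92%. For TNF-α, 0 of the 11 passed in either knockdown.

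Of 43 other TRIM genes tested after TNF-α stimulation, 5 were higher and 2 lower in GSTM1 KD, against 7.26% and 8.92% of all genes, with a median of -0.15. Trim24 (0.90, adjusted p = 0.0178) and Trim2 (0.54, adjusted p = 0.0270) were higher, and Trim47 (-0.92, adjusted p = 0.0112) and Trim27 (-0.93, adjusted p = 0.0164) were lower. TNF-α raised 1 of 45 other TRIM genes in control KD and 8 in GSTM1 KD, against 2.1% and 2.35% of all genes. Within the chromosome 7 paralogs, 2 of the 8 tested besides the genes described above passed as higher in GSTM1 KD after stimulation and 0 as lower, with a median of 0.89. Trim30d had 920 and 674 counts in the control KD pair against 2806 and 1152 in the GSTM1 KD pair (log2 fold change 1.27, adjusted p = 0.0477). Trim30b had 4 and 2 against 19 and 10 counts (2.22, adjusted p = 0.0487), near the floor of 3 counts that covers counting error only.

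Among 16 partners and pathway genes of the 10, 4 were higher and 3 lower in stimulated GSTM1 KD astrocytes, against 7.26% and 8.92% of all genes. Ddx58, whose product TRIM25 acts on, had 2335 and 1937 counts in the control KD pair against 7143 and 4045 in the GSTM1 KD pair, a log2 fold change of 1.35 (adjusted p = 0.0170). Tab2 and Tab3, the adaptors that TRIM30A acts on, were lower, with 3373 and 2684 against 1708 and 1273 counts for Tab2 (-1.04, adjusted p = 0.0109) and 754 and 408 against 300 and 235 for Tab3 (-1.09, adjusted p = 0.0215). Both were lower in untreated GSTM1 KD cultures too, with Tab2 at -0.88 on the log2 scale (adjusted p = 0.0228) and Tab3 at -1.19 (adjusted p = 0.0192). Of the 16 interferon receptors and factors, 5 were higher and 3 lower, against the same shares of all genes. Irf9 had 1377 and 876 counts in control KD against 2937 and 1812 in GSTM1 KD (1.07, adjusted p = 0.0178). The receptor gene Ifnar1 (-0.49, adjusted p = 0.0265) and Irf8 (-2.35, adjusted p = 0.0309) were lower. Irf8 had 23 and 14 counts in control KD against 4 and 3 in GSTM1 KD after stimulation, near the floor of 3 counts. The count of Ifnb1, which encodes interferon beta, was 0 in all 4 basal libraries, 7 and 1 in the control KD pair against 25 and 9 in the GSTM1 KD pair after stimulation. Ifnb1 is named here after its values were seen.

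Of 47 other interferon-induced genes tested after TNF-α stimulation, 27 passed as higher in GSTM1 KD and 0 as lower, and their median log2 fold change was 1.26 against 0.77 for the 10 PARP and TRIM genes. The smallest p-values were those of Lgals3bp (0.90, adjusted p = 0.0124), Ifi27 (0.69, adjusted p = 0.0159), Ifit3b (2.04, adjusted p = 0.0169) and Ddx58. Without TNF-α, Ifi27 was also higher in GSTM1 KD (0.71, adjusted p = 0.0377) and Lgals3bp was at 0.76 (adjusted p = 0.0757), whereas Ifit3b was at -0.09 (adjusted p = 0.878). The response of Ifi27 to TNF-α was 0.12 in each knockdown and did not pass. TNF-α raised 20 of these 47 in control KD and 40 in GSTM1 KD, with medians of 1.39 and 2.61. At the basal level 1 of 42 tested was higher and 2 lower in GSTM1 KD. Of the 18 NF-κB targets, 0 passed as higher and 7 as lower in stimulated GSTM1 KD astrocytes, with a median of -0.68, and 7 passed as lower at the basal level, of which 6 were among the 7 lower after stimulation. Among them were Birc3 (-1.01, adjusted p = 0.0129), Tnfaip2 (-2.30, adjusted p = 0.0140), Icam1 (-1.22, adjusted p = 0.0152) and Ccl2 (-1.03, adjusted p = 0.0216). TNF-α raised 15 of the 18 in control KD and 14 in GSTM1 KD. Over all genes, 7.26% passed as higher and 8.92% as lower in stimulated GSTM1 KD, and 10.2% in either direction at the basal level. TNF-α raised 2.1% of all genes in control KD and 2.35% in GSTM1 KD. None of these lists was tested as a set.

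**Figure D4:**
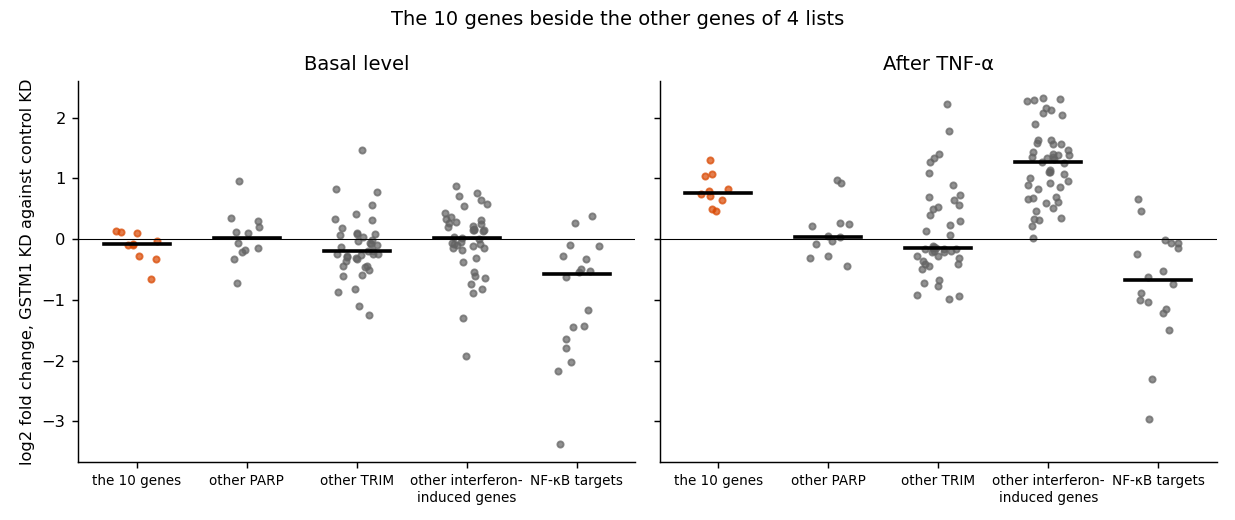
Log2 fold change of GSTM1 KD against control KD at the basal level (left) and after TNF-α stimulation (right), with 1 point per gene and bars at the median. The 10 genes have medians of -0.08 and 0.77, the other interferon-induced genes 0.02 and 1.26, and the NF-κB targets -0.58 and -0.68. Genes left out by the filter on low counts are not drawn.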

How the data were processed

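RNA-seq libraries (NEBNext Ultra Directional, 100-bp paired-end) were mapped by the authors to GRCm38 with STAR (version 2.5.4b) and quantified with RSEM (version 1.3.0). The authors deposited, per gene and library, expected counts (estimated fragments, not normalized, fractional where reads fit several genes), TPM values and effective lengths in bases. The annotation and the strand setting were not given in the sources used here. The counts were rounded, scaled by TMM factors, filtered by filterByExpr and tested in edgeR (version 4.0.16, R version 4.3.3) by its quasi-likelihood F-test. Adjustment was by Benjamini and Hochberg over all genes tested, which is the source of adjusted p-values unless DESeq2 (version 1.42.0) is named. Groups of 2 cannot pass an exact test at 0.05, and p-values measure the spread between these cultures. Positions come from the GENCODE annotation of GRCm38, matched by gene ID, and promoters from RefSeq. Lists and members were chosen with earlier results of these data known. Named genes were all 10 members, the 5 nearest in pattern to 3 of them and, per list, up to 4 genes with the smallest p-values past the threshold after TNF-α stimulation with separated groups. Parp8, Zc3hav1, Ifnb1, Ifit1, Usp18 and Isg15 were named after their values were seen. Some single genes of the lists are left out of the text. Depth was 17349676 to 34434633 counts per library. Replicates differed by more than sampling noise in all groups (chi-square per gene 13.8 to 55.4). On simulated counts for the comparison after TNF-α stimulation (14598 genes), edgeR recovered 9 of 67 genes changed 1.5-fold, 36 of 67 changed 2-fold and 61 of 66 changed 4-fold. For the interaction (15014 genes) it recovered 0, 14 and 56 of these. The simulation gave every gene the same spread and changed no other genes, so these shares do not give the power for the 10 genes. Alternatives were DESeq2, other scalings and filters, a replicate block, other libraries in the fit, edgeR's newer method, limma (version 3.58.1) on log2(TPM + 0.5), length offsets, each library left out, and, added after seeing the data, counts summed over genes that share reads. Figures were drawn with matplotlib (version 3.10.9).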

Additional observations from a re-analysis of the deposited data

Results flagged for a closer look

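For 3 of the 10 genes the GSTM1 KD libraries both lay below the control KD pair before stimulation and both above it after TNF-α, as did 0.737% of the 14379 genes tested in both states. This order was not particular to these 3. The interferon-induced genes Ifit1 and Usp18 had it too, while Isg15 overlapped at the basal level. Untreated, Ifit1 had 24.02 and 26.05 TPM in the control KD pair against 16.2 and 11.96 in the GSTM1 KD pair. After TNF-α stimulation it had 142 and 128 against 571 and 302 TPM. How many other interferon-induced genes had this order was not counted. The difference between GSTM1 KD and control KD moved by 1.47 on the log2 scale for Trim25, by 1.42 for Parp14 and by 0.55 for Parp10 from the basal level to TNF-α. The test of this difference, the interaction in edgeR, gave an adjusted p of 1.00 for each, with unadjusted p-values from the same fit of 0.00855 for Trim25, 0.00341 for Parp14 and 0.0528 for Parp10. DESeq2 gave adjusted p = 0.190 for Trim25 and 0.0314 for Parp14. For Parp10 the basal separation was narrow, with 19.7 CPM in the lower control KD library and 19.3 CPM in the higher GSTM1 KD library, and the basal direction turned when TPM values were used. Without GSTM1 KD replicate 1 after TNF-α stimulation the differences of Trim25 and Parp14 were 0.91 and 1.02.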

How the results depend on the processing

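After TNF-α stimulation all 10 genes stayed higher in GSTM1 KD under every alternative run, except that Parp10 summed with Plec, whose counts make up most of the sum (33568 and 24867 in control KD against 13470 and 10387), was at -1.30 (adjusted p = 0.0103), and at -0.033 in the interaction, where Parp10 alone was at 0.55. That sum was added after the data were seen. The number past the threshold moved from 2 in edgeR to 8 with DESeq2, 10 without the filter on low counts, 4 with library size only and 5 with all 8 libraries in the fit, while calls over all genes moved from 2360 to 2824, 4540, 2513 and 3116. With a replicate block it was 8, and it was 0 to 6 with each library left out. The replicate block gave 1 at the basal level, 7 for TNF-α in control KD, 10 for TNF-α in GSTM1 KD and 0 for the interaction. Over all genes the block gave 4302 calls after stimulation against 2360 without it, 4712 against 1524 at the basal level, 988 against 403 for TNF-α in control KD and 808 against 406 in GSTM1 KD. Same-numbered libraries deviated together (correlations 0.165 to 0.575), but there are only 2 numbers and no source says what they mark, so they were not taken as pairs. At the basal level 1 gene, Trim25, passed as lower with DESeq2, with no filter and with the block, and 0 to 1 passed with each library left out. All-gene calls there were 2492 with DESeq2 and 3957 without the filter. For TNF-α in control KD 10 passed without the filter (all genes 1255 against 403) and 2 to 8 with a library left out (2 without replicate 2 of control KD in either state). In GSTM1 KD 4 to 10 passed with a library left out, 5 without GSTM1 KD replicate 1 and 4 without replicate 2 at the basal level, where all-gene calls fell from 406 to 83 and 74. The interaction count was 1 with DESeq2 (all genes 27), 7 without the filter (all genes 134) and 0 to 0 with a library left out. Basal values near 0 changed sign. With limma on TPM, Parp10 was at 0.030 and Trim30a at 0.029. With counts summed with Parp9, Dtx3l was at 0.0096. With a library left out, Trim21 ran from -0.20 to 0.00093, Trim56 from -0.047 to 0.32, Dtx3l from -0.20 to 0.0013, Trim30a from -0.33 to 0.13 and Trim34a from -0.66 to 0.012. The causes were not tested. On simulated counts, with the same spread for every gene, edgeR recovered 36 of 67 genes changed 2-fold after TNF-α stimulation and 14 of 67 for the interaction.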
